A study of Homo sapiens with 18 samples.

Results

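The integrated stress response was followed through 10 genes: the kinase gene EIF2AK3, the transcription factor genes ATF4, CEBPB, CEBPG, DDIT3 and ATF3, the targets TRIB3, CHAC1 and STC2, and the phosphatase subunit gene PPP1R15A. They were chosen by symbol from a count table of 60683 Ensembl gene IDs. All 10 were found and all 10 passed the filter on low counts, which left 18159 genes to test. The counts came from RNA sequencing of Cal27, an established oral squamous cell carcinoma (OSCC) line of the tongue, after 24 hours of treatment. The 6 groups held 3 libraries each. They were glucose-deprived medium with CGRP, glucose-deprived control medium, 2-DG medium with CGRP, 2-DG control medium, high-glucose DMEM with CGRP, and high-glucose DMEM control medium. CGRP is calcitonin gene-related peptide, which sensory nerve endings release, and it was given as the recombinant human peptide at 10 nM. 2-DG medium was the high-glucose DMEM with 2-deoxyglucose at 5 mM, a glucose analogue that inhibits glycolysis and interferes with the addition of sugar chains to proteins. The design text reads the title codes TG as CGRP and capTG as control, whereas CM is the one word the growth protocol has for the media, and the arms are named here as the design text names them. All libraries are of 1 cell line, and the repetitions are described as biologically independent.

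In the integrated stress response, kinases that sense different kinds of stress phosphorylate the translation initiation factor eIF2. PERK, which EIF2AK3 encodes, senses unfolded proteins in the endoplasmic reticulum (ER), and GCN2, which EIF2AK4 encodes, senses uncharged transfer RNA. Phosphorylated eIF2 slows protein synthesis in general but lets ATF4 messenger RNA be translated, so much of the control of ATF4 lies outside its transcript level. ATF4 pairs with other basic leucine zipper (bZIP) proteins, among them the C/EBP proteins and CHOP (the product of DDIT3), and activates genes of amino acid supply and of the response itself. In carcinoma cells, shortage of glucose and faulty glycosylation in the ER are known triggers.

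Because ATF4 with a C/EBP partner binds a composite C/EBP-ATF element (CARE), the RefSeq promoters (assembly GRCh38.p14, 250 bases before to 50 after each annotated start) were searched on both strands for TGATGNAA. All 10 genes matched the promoter table, with 17 entries. CHAC1, CEBPG and ATF3 held the element in 1 entry each. Of all 35116 promoters in the table, 3.62% held it. The stricter TGATGCAA, a subset of the same matches, lay in the promoters of CHAC1 and CEBPG and in 0.866% of all promoters. TGACGTCA, the cAMP response element (CRE) that bZIP factors of the ATF family can bind, lay in the promoter of PPP1R15A and in 1.85% of all. A match describes letters and not binding. The stretches that hold the matches follow on the plus strand, 5′ to 3′, with the matched element in capitals. In CHAC1 the element runs on the opposite strand, so that its reverse complement is in capitals, and it lies in the first exon of longer annotated transcripts.
ATF3, chr1:212565214-212565333: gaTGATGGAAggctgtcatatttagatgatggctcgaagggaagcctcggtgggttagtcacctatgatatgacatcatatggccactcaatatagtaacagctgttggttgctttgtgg
CHAC1, chr15:40953251-40953280: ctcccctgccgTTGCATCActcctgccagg
CEBPG, chr19:33373993-33374112: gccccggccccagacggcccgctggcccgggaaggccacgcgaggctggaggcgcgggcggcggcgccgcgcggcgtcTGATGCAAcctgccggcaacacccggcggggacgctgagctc
PPP1R15A, chr19:48872272-48872391: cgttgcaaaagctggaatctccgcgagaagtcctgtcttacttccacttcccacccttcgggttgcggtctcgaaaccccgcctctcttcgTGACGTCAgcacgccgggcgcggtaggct
The matches began 191 bases before the start in ATF3, 209 in CHAC1, 42 in CEBPG and 58 in PPP1R15A.

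Libraries held 28.04M to 32.66M counts, and levels are given in CPM, the count of a gene relative to the TMM-scaled total of its library. For the cell type markers alone, CPM is relative to the unscaled total. All 8 squamous carcinoma markers searched averaged over 1 CPM, with a summed level between 3383 and 5219 CPM. On the second principal component, which held 8.98% of the variance, 2 libraries stood far from their group mates. Deprived CGRP 2 lay at 39.0 where its mates lay at -8.77 and -8.74, and 2-DG control 2 lay at 23.7 where its mates lay at -9.10 and -5.77. In deprived CGRP 2 the median gene differed from its mates by 0.12 on the log2 scale among 4480 short genes (exons of up to 2224 bases) and by -0.24 among 4480 long ones (from 6714 bases), and in 2-DG control 2 by 0.08 and -0.17. Both libraries carry replicate number 2. They were kept, and counts of called genes that moved by more than 1.5 times without them are given both ways. Between 2 libraries of a group, chi-square per degree of freedom is near 1 where counting noise alone separates them. It was 1.39 to 1.82 in high glucose control and 1.59 to 2.05 in deprived control. Deprived CGRP 1 and 3 gave 1.44, and against deprived CGRP 2 they gave 77.8 and 80.3. Whether the repetitions were independent cultures was not tested.

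Among the 10 genes these libraries deviated in the same direction for most. DDIT3 was 0.85 higher on the log2 scale in deprived CGRP 2 than the mean of its mates, and 0.52 higher in 2-DG control 2. ATF4 was 0.42 and 0.27 higher, TRIB3 0.28 and 0.21 higher, and CEBPB 0.30 and 0.19 higher. EIF2AK3 went the other way, at -0.43 and -0.39. ATF3 and PPP1R15A differed by at most 0.14 in either library.

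**Figure D1:**
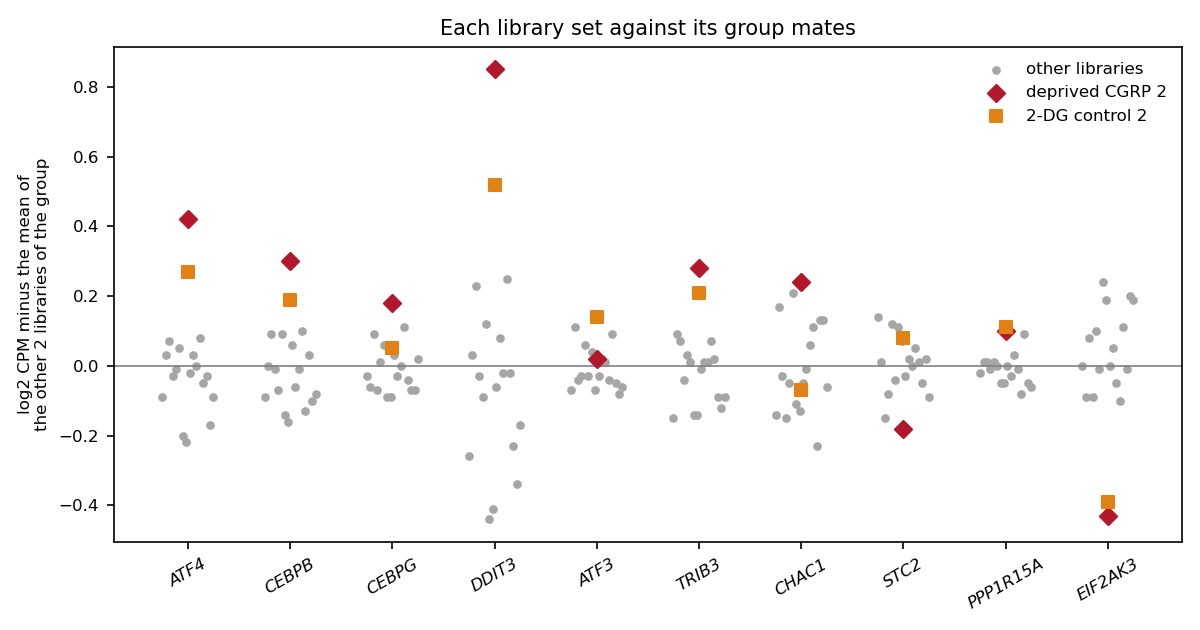
The log2 CPM of each library minus the mean of the other 2 libraries of its group, for the 10 genes; red diamonds are deprived CGRP 2, orange squares 2-DG control 2, and grey points the other 16 libraries. DDIT3 reaches 0.85 in deprived CGRP 2, and EIF2AK3 lies at -0.43 and -0.39 in the 2 libraries.

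The genes differed widely in transcript level. Divided by the total exon length of each gene, levels in the high glucose control group ranged over CPM per kb of 118 for ATF4, 88.8 for CEBPB, 20.3 for PPP1R15A and 2.52 for CHAC1, the lowest. In the deprived control group ATF4 was still the highest at 223 CPM per kb. DDIT3 stood at 196 CPM per kb in deprived control and 7.91 in high glucose control, and TRIB3 at 145 in deprived control and 11.0 in high glucose control. Lengths are unions of annotated exons (GENCODE 29), so these levels depend on which transcripts the cells use.

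**Figure D2:**
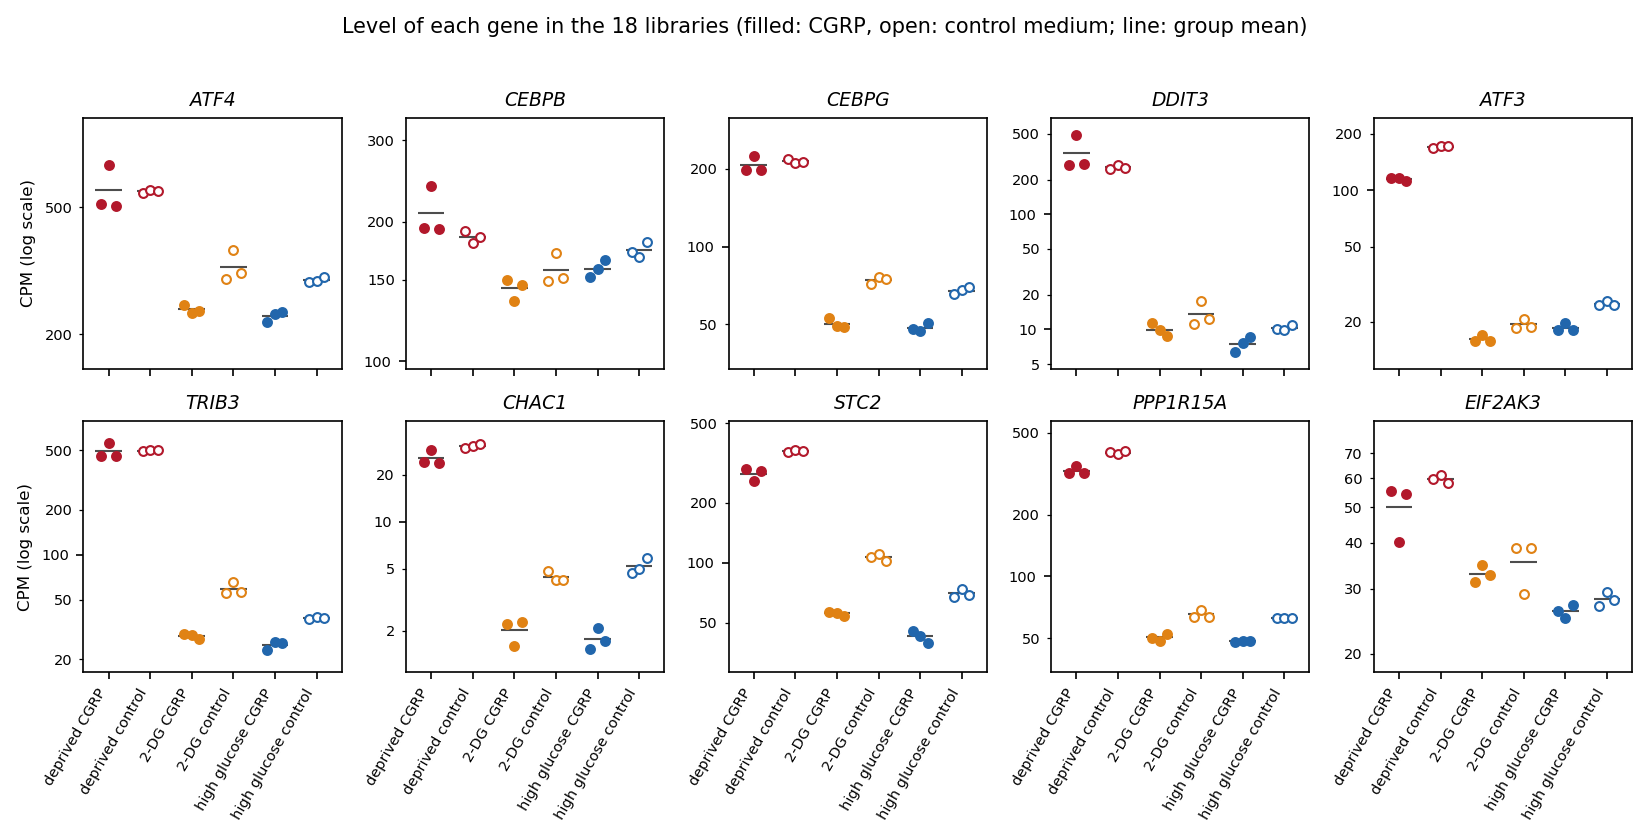
CPM on a log axis for each of the 10 genes in the 18 libraries, by group, with deprived groups in red, 2-DG in orange and high glucose in blue; filled points are CGRP, open points control medium, and the line is the mean of 3 libraries. In 9 of the genes both deprived groups lie above all other libraries, and CEBPB spans the narrowest range.

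The first comparison asked how the response stood after 24 hours without glucose. In control medium, 9 of the 10 genes rose with deprivation, 0 fell, and CEBPB did not pass. Over all tested genes 60.6% changed and 31.0% rose in this comparison, so the share that rose is read against that background. The median log2 fold change of the 10 genes was 2.46, beside 0.02 over all genes. With total counts in place of TMM scaling the median over all genes was -0.13 and the same number of the 10 genes, 9, passed. In bulk RNA, fewer cells with a transcript and less of it per cell cannot be told apart, here or in any result below.

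At the head of the pathway, EIF2AK3 (ENSG00000172071) stood at 59.6, 61.1 and 58.2 CPM in the deprived control libraries, against 26.9, 29.5 and 28.0 CPM in the high glucose control libraries. The groups did not overlap, and the gene rose 2.12-fold (log2 fold change 1.08 ± 0.11 SE, adjusted p = 4.2e-07). ATF4 (ENSG00000128272), the central factor, stood at 555, 568 and 561 CPM in deprived control and 292, 294 and 303 CPM in high glucose control. It rose 1.90-fold (0.92 ± 0.10, adjusted p = 4.2e-07), the smallest rise among the 9 genes.

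The factors downstream of ATF4 had larger fold changes. DDIT3 (ENSG00000175197), which encodes CHOP, a factor linked to cell death under lasting ER stress, stood at 249, 266 and 254 CPM in deprived control and 10.1, 9.81 and 11.0 CPM in high glucose control. The rise was 24.8-fold (log2 4.63 ± 0.23, adjusted p = 4.4e-11), rank 39 from the top of the 18159 genes by fold change. Exons of DDIT3 overlap those of MARS1 (MARS in the annotation) by 355 bases and of MBD6 by 58 bases, both on the other strand. MARS averaged 6803.6 counts and MBD6 1097.4 counts over all libraries, where DDIT3 averaged 3070.4 counts and had 304 to 328 counts per library in high glucose control. Since the strand setting of the counting is not given in the sources used here, reads in these overlaps cannot be assigned. Antisense genes also overlap exons of CEBPB and EIF2AK3, with mean counts of 53.7 for CEBPB-AS1 and 5.4 and 113.3 for the 2 beside EIF2AK3, where CEBPB averaged 5138.7 counts and EIF2AK3 1162. ATF3 (ENSG00000162772), a bZIP factor induced by many stresses, stood at 168, 173 and 172 CPM in deprived control and 24.5, 25.7 and 24.5 CPM in high glucose control. It rose 6.86-fold (2.78 ± 0.06, adjusted p = 1.3e-15). CEBPG (ENSG00000153879), an ATF4 partner with roles in amino acid and redox metabolism, stood at 217, 210 and 213 CPM in deprived control and 65.3, 68.1 and 69.5 CPM in high glucose control. It rose 3.16-fold (1.66 ± 0.06, adjusted p = 5.6e-13).

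CEBPB (ENSG00000172216), a C/EBP factor of inflammation and differentiation, was the exception. It stood at 191, 180 and 185 CPM in deprived control and 172, 168 and 181 CPM in high glucose control, so the groups overlapped. The log2 fold change was 0.09 ± 0.08 (adjusted p = 0.32). With total-count scaling its sign turned, to -0.06, beside the median of -0.13 over all genes. In the edgeR fit of these 2 groups alone CEBPB passed, at 0.06 (adjusted p = 0.028, between 0.028 and 0.7 over all alternatives).

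Of the targets, TRIB3 (ENSG00000101255), a pseudokinase that binds AKT and ATF4, stood at 495, 499 and 499 CPM in deprived control and 37.1, 38.5 and 37.9 CPM in high glucose control. It rose 13.1-fold (3.72 ± 0.09, adjusted p = 6.4e-15). CHAC1 (ENSG00000128965), an enzyme that degrades glutathione, was a low transcript with 882 to 923 counts per library in deprived control and 140 to 175 counts in high glucose control. It stood at 29.8, 30.4 and 31.4 CPM in deprived control and 4.67, 4.99 and 5.89 CPM in high glucose control, a 5.89-fold rise (2.56 ± 0.11, adjusted p = 1.1e-11). STC2 (ENSG00000113739), a secreted glycoprotein induced by ER stress, stood at 358, 366 and 362 CPM in deprived control and 67.6, 74.2 and 69.0 CPM in high glucose control. It rose 5.15-fold (2.36 ± 0.06, adjusted p = 4e-14).

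PPP1R15A (ENSG00000087074) encodes GADD34, the subunit that directs protein phosphatase 1 to eIF2 and so ends the response. It stood at 401, 395 and 406 CPM in deprived control and 62.4, 63.0 and 62.9 CPM in high glucose control. The groups were more than 300 CPM apart, and the rise was 6.38-fold (2.67 ± 0.05, adjusted p = 7.4e-16).

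Under CGRP all 10 genes rose with deprivation, where 60.4% of all tested genes changed and 31.9% rose. The median of the 10 was 2.67, beside 0.04 over all genes. DDIT3 stood at 269, 489 and 273 CPM in deprived CGRP and 6.40, 7.57 and 8.53 CPM in high glucose CGRP (log2 fold change 5.52 ± 0.24, adjusted p = 7.9e-12). TRIB3 rose by 4.30 and CHAC1 by 3.85 on the log2 scale, STC2 by 2.71, PPP1R15A by 2.76, ATF3 by 2.63, CEBPG by 2.08, ATF4 by 1.30 and EIF2AK3 by 0.94. CEBPB passed here, at 194, 239 and 193 CPM in deprived CGRP and 152, 158 and 165 CPM in high glucose CGRP (0.40 ± 0.08, adjusted p = 3.8e-04). The 239 CPM came from deprived CGRP 2. Over all alternatives tried, the log2 fold change of CEBPB under CGRP lay between 0.26 and 0.43 and its adjusted p between 4.4e-07 and 0.023.

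**Figure D3:**
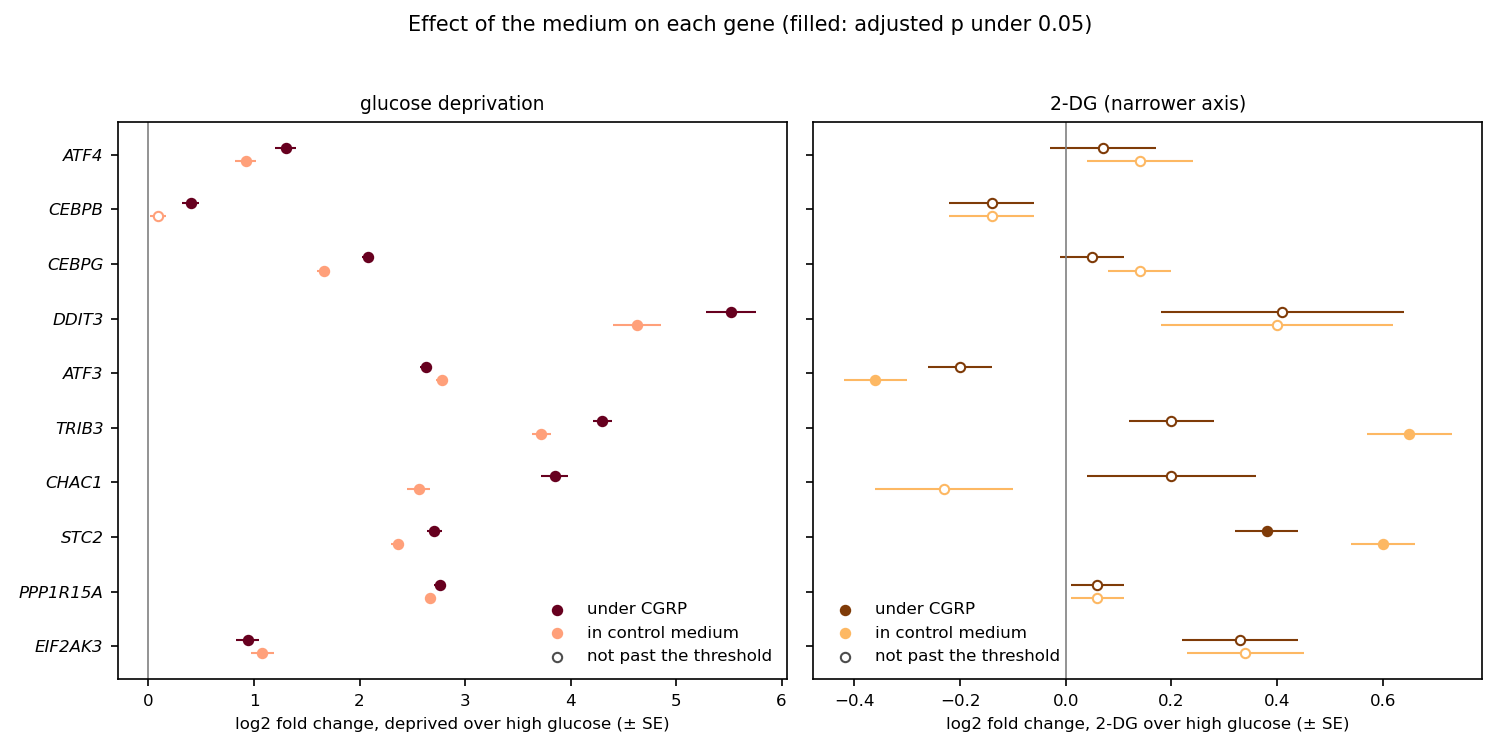
Log2 fold change ± SE of each gene with glucose deprivation (left) and with 2-DG (right, narrower axis), both over high glucose; dark points are under CGRP, light points in control medium, filled where the adjusted p is under 0.05. Deprivation moves 9 genes by 0.92 to 4.63 in control medium, whereas no 2-DG value lies beyond 0.65.

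2-DG moved few of the genes. In control medium 2 rose, 1 fell and 7 did not pass, where 13.8% of all tested genes changed, 7.99% rose and 5.85% fell. The comparison shares the high glucose control libraries with that of deprivation. TRIB3 stood at 55.8, 65.3 and 56.5 CPM in 2-DG control and 37.1, 38.5 and 37.9 CPM in high glucose control, and rose 1.56-fold (0.65 ± 0.08, adjusted p = 5e-05). STC2 stood at 107, 110 and 102 CPM in 2-DG control and 67.6, 74.2 and 69.0 CPM in high glucose control, and rose 1.52-fold (0.60 ± 0.06, adjusted p = 1.2e-05).

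ATF3 was lower, at 18.6, 20.8 and 18.8 CPM in 2-DG control and 24.5, 25.7 and 24.5 CPM in high glucose control (-0.36 ± 0.06, adjusted p = 3.4e-04). Thus TRIB3 and ATF3, which both rose with deprivation, moved in opposite directions with 2-DG. ATF4 stood at 299, 367 and 311 CPM in 2-DG control and 292, 294 and 303 CPM in high glucose control (0.14 ± 0.10, adjusted p = 0.4), where the 367 CPM came from the library that stood apart. EIF2AK3 stood at 38.7, 29.1 and 38.7 CPM in 2-DG control and 26.9, 29.5 and 28.0 CPM in high glucose control (0.34 ± 0.11, adjusted p = 0.063). Its low value, 29.1 CPM, was again of 2-DG control 2.

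DDIT3, CEBPG, CHAC1 and CEBPB did not pass with 2-DG in control medium either. DDIT3 stood at 11.2, 17.6 and 12.2 CPM in 2-DG control and 10.1, 9.81 and 11.0 CPM in high glucose control (0.40 ± 0.22, adjusted p = 0.27). CEBPG lay without overlap at 72.0, 76.2 and 75.1 CPM in 2-DG control and 65.3, 68.1 and 69.5 CPM in high glucose control (0.14 ± 0.06, adjusted p = 0.13). CHAC1 was at -0.23 ± 0.13 and CEBPB at -0.14 ± 0.08, with an adjusted p of 0.26 each.

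Without the 2 libraries that stood apart 6 genes passed, 4 up and 2 down, but then 32.5% of all tested genes changed. EIF2AK3 was among them at 0.45 (adjusted p = 3.4e-09, between 3.4e-09 and 0.2 over all alternatives). Without deprived CGRP 2 alone 5 passed. PPP1R15A was at 63.7, 68.8 and 63.3 CPM in 2-DG control and 62.4, 63.0 and 62.9 CPM in high glucose control (0.06 ± 0.05, adjusted p = 0.51).

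Under CGRP the difference with 2-DG passed for 1 gene of 10, STC2, where 2.39% of all tested genes changed and 1.52% rose. STC2 stood at 56.9, 55.9 and 54.3 CPM in 2-DG CGRP and 45.6, 43.0 and 39.7 CPM in high glucose CGRP (0.38 ± 0.06, adjusted p = 0.0046). TRIB3 was at 29.6, 28.9 and 27.4 CPM in 2-DG CGRP and 23.1, 26.0 and 25.8 CPM in high glucose CGRP (0.20 ± 0.08, adjusted p = 0.26). The log2 fold change was 0.41 ± 0.23 for DDIT3, 0.33 ± 0.11 for EIF2AK3, 0.20 ± 0.16 for CHAC1, 0.07 ± 0.10 for ATF4, 0.06 ± 0.05 for PPP1R15A, 0.05 ± 0.06 for CEBPG, -0.14 ± 0.08 for CEBPB and -0.20 ± 0.06 for ATF3, with adjusted p from 0.085 (ATF3) to 0.86 (ATF4). The number that passed was 6 without the 2 libraries that stood apart, beside 19.5% of all tested genes, and 3 without deprived CGRP 2 alone.

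Set against deprivation itself, 2-DG left all 10 genes lower. Of all tested genes 57.5% changed and 28.6% fell between the 2-DG and the deprived control groups, and the median of the 10 was -2.19, beside -0.00 over all genes. DDIT3 averaged 13.7 ± 3.45 CPM in 2-DG control and 256 ± 8.91 CPM in deprived control (SD, n = 3 each), a log2 fold change of -4.23 ± 0.22 (adjusted p = 1.3e-10). The log2 fold change was -3.14 for ATF3, -3.07 for TRIB3, -2.79 for CHAC1, -2.62 for PPP1R15A, -1.76 for STC2, -1.52 for CEBPG, -0.79 for ATF4 and -0.75 for EIF2AK3. CEBPB had the smallest difference, at 149, 171 and 151 CPM in 2-DG control and 191, 180 and 185 CPM in deprived control (-0.24, adjusted p = 0.017). It did not pass in 7 of 26 other settings, where the adjusted p over all of them ran from 1.7e-07 to 0.097.

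The second question was what CGRP did in each medium. In high glucose, 7 of the 10 genes fell, 0 rose, and CEBPB, DDIT3 and EIF2AK3 did not pass. Over all tested genes 4.33% changed and 2.29% fell. The median log2 fold change of the 10 was -0.44, beside -0.01 over all genes. CHAC1 differed most. It had 1.53, 2.07 and 1.72 CPM in CGRP libraries (50 to 66 counts) and 4.67, 4.99 and 5.89 CPM in control libraries, a log2 fold change of -1.55 ± 0.14 (adjusted p = 7e-06). That is 0.342 of the control level, rank 32 from the lowest of all 18159 genes.

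STC2 stood at 45.6, 43.0 and 39.7 CPM under CGRP and 67.6, 74.2 and 69.0 CPM in control, and fell by 0.72 on the log2 scale (adjusted p = 5e-06). TRIB3 stood at 23.1, 26.0 and 25.8 CPM in high glucose CGRP and 37.1, 38.5 and 37.9 CPM in high glucose control (-0.60 ± 0.08, adjusted p = 3.3e-04). The factors CEBPG and ATF3 were also lower. CEBPG stood at 47.9, 47.3 and 50.7 CPM in high glucose CGRP and 65.3, 68.1 and 69.5 CPM in high glucose control (-0.48 ± 0.06, adjusted p = 1.2e-04), and ATF3 at 18, 19.7 and 18.2 CPM in high glucose CGRP and 24.5, 25.7 and 24.5 CPM in high glucose control (-0.42 ± 0.06, adjusted p = 2.8e-04). PPP1R15A had the tightest groups, with 48.0, 48.5 and 48.6 CPM under CGRP and 62.4, 63.0 and 62.9 CPM in control (-0.38 ± 0.05, adjusted p = 2.4e-04). None of these groups overlapped.

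ATF4 lay near the threshold. It stood at 219, 232 and 236 CPM under CGRP and 292, 294 and 303 CPM in control, with no overlap (-0.37 ± 0.10, adjusted p = 0.039). Leaving out 1 library in turn took it past 0.05 in 13 of 18 cases, with adjusted p from 0.051 to 0.16, and without the 2 libraries that stood apart it was 1.1e-12, at -0.36 (1.1e-12 to 0.16 over all alternatives). DDIT3 stood at 6.40, 7.57 and 8.53 CPM in high glucose CGRP and 10.1, 9.81 and 11.0 CPM in high glucose control, also without overlap, but did not pass (-0.46 ± 0.23, adjusted p = 0.38). It passed when the 2 libraries that stood apart were left out (-0.46, adjusted p = 9.6e-04, between 1.7e-04 and 0.81 over all alternatives), and 9 genes in all fell, beside 19.1% of all tested genes that changed. Neither of these libraries is of the high glucose groups, and they enter through the shared estimate of the spread.

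In 2-DG medium 7 genes again fell under CGRP and 0 rose, where 12.2% of all tested genes changed and 6.89% fell. The median was -0.45, beside -0.01. TRIB3 stood at 29.6, 28.9 and 27.4 CPM in CGRP libraries and 55.8, 65.3 and 56.5 CPM in control libraries, 0.483 of the control level (-1.05 ± 0.08, adjusted p = 4.3e-07). CHAC1 stood at 2.22, 1.61 and 2.27 CPM in 2-DG CGRP and 4.80, 4.21 and 4.22 CPM in 2-DG control (-1.12 ± 0.14, adjusted p = 7.7e-05). STC2 stood at 56.9, 55.9 and 54.3 CPM in 2-DG CGRP and 107, 110 and 102 CPM in 2-DG control (-0.93 ± 0.06, adjusted p = 1.4e-07). Each of these 3 targets lay well apart between the groups.

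Among the factors, ATF4 stood at 248, 234 and 237 CPM in 2-DG CGRP and 299, 367 and 311 CPM in 2-DG control (-0.44 ± 0.10, adjusted p = 0.006). CEBPG stood at 53.1, 49.4 and 48.8 CPM in 2-DG CGRP and 72.0, 76.2 and 75.1 CPM in 2-DG control (-0.56 ± 0.06, adjusted p = 9.2e-06). ATF3 fell least of the 7, at 15.9, 17.0 and 15.8 CPM in 2-DG CGRP and 18.6, 20.8 and 18.8 CPM in 2-DG control (-0.25 ± 0.06, adjusted p = 0.0065). PPP1R15A stood at 50.2, 48.3 and 52.6 CPM in 2-DG CGRP and 63.7, 68.8 and 63.3 CPM in 2-DG control (-0.37 ± 0.05, adjusted p = 8.7e-05). DDIT3, at 11.4, 9.82 and 8.72 CPM in 2-DG CGRP and 11.2, 17.6 and 12.2 CPM in 2-DG control, overlapped between the groups (-0.45 ± 0.22, adjusted p = 0.22). The 17.6 CPM was of 2-DG control 2, and without the 2 libraries that stood apart DDIT3 was at -0.23. EIF2AK3 then joined the 7 genes (-0.23, adjusted p = 4.6e-04, between 4.6e-04 and 0.88 over all alternatives), beside 28.4% of all tested genes that changed.

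In deprived medium 3 genes fell under CGRP, 0 rose and 7 did not pass, where 13.0% of all tested genes changed and 6.58% fell. The median of the 10 was -0.15, beside 0.01. ATF3 stood at 117, 116 and 112 CPM in CGRP libraries and 168, 173 and 172 CPM in control libraries, 0.673 of the control level (-0.57 ± 0.05, adjusted p = 5.7e-06). STC2 stood at 294, 256 and 288 CPM in deprived CGRP and 358, 366 and 362 CPM in deprived control (-0.37 ± 0.06, adjusted p = 8.7e-04). PPP1R15A stood at 320, 343 and 319 CPM in deprived CGRP and 401, 395 and 406 CPM in deprived control (-0.29 ± 0.05, adjusted p = 7.9e-04). In these 3 genes the groups did not overlap.

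Among the 7 that did not pass were TRIB3 and DDIT3, the 2 genes with the largest rise under deprivation. TRIB3 stood at 458, 557 and 459 CPM in deprived CGRP and 495, 499 and 499 CPM in deprived control (-0.02 ± 0.08, adjusted p = 0.91). DDIT3 was at 269, 489 and 273 CPM in deprived CGRP and 249, 266 and 254 CPM in deprived control (0.42 ± 0.19, adjusted p = 0.17), higher in all 3 CGRP libraries but most of all in the one that stood apart. ATF4 was at 511, 680 and 506 CPM in deprived CGRP and 555, 568 and 561 CPM in deprived control (0.01 ± 0.10, adjusted p = 0.95). In ATF4 and TRIB3 the highest library of all was deprived CGRP 2, while the other 2 CGRP libraries lay below every control library. CHAC1 lay without overlap at 24.2, 28.9 and 23.9 CPM in deprived CGRP and 29.8, 30.4 and 31.4 CPM in deprived control (-0.25 ± 0.10, adjusted p = 0.12). CEBPG overlapped, at 197, 224 and 197 CPM in deprived CGRP and 217, 210 and 213 CPM in deprived control (-0.05 ± 0.06, adjusted p = 0.58).

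CEBPB and EIF2AK3 did not pass under CGRP in any of the 3 media in the fit of all 18 libraries. CEBPB passed in high glucose in the fit of those 2 groups alone (-0.12, adjusted p = 0.0054). It also passed there without the 2 libraries that stood apart (-0.13, adjusted p = 0.01, between 0.0054 and 0.84 over all alternatives). CEBPB was at 194, 239 and 193 CPM in deprived CGRP and 191, 180 and 185 CPM in deprived control (0.17 ± 0.08, adjusted p = 0.17). In 2-DG medium it was at 150, 135 and 146 CPM with CGRP and 149, 171 and 151 CPM in control, and in high glucose at 152, 158 and 165 CPM with CGRP and 172, 168 and 181 CPM in control, with a log2 fold change of -0.13 in both. The CEBPB groups overlapped in 2-DG medium. They did not overlap in deprived medium, where the CGRP libraries were the higher ones, nor in high glucose, where they were the lower ones. EIF2AK3 was at 55.5, 40.3 and 54.2 CPM in deprived CGRP and 59.6, 61.1 and 58.2 CPM in deprived control (-0.25 ± 0.11, adjusted p = 0.15), the 40.3 CPM in the library that stood apart. It overlapped in 2-DG medium, at 31.3, 34.8 and 32.8 CPM with CGRP and 38.7, 29.1 and 38.7 CPM in control, with a log2 fold change of -0.11. In high glucose the log2 fold change was also -0.11, and the highest CGRP library, at 27.2 CPM, lay above the lowest control library, at 26.9 CPM.

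On leaving out the 2 libraries that stood apart, 7 genes fell under CGRP in deprived medium, beside 28.7% of all tested genes that changed. ATF4 turned to -0.13 ± 0.03 (adjusted p = 0.0011), which reversed its sign, and over all alternatives its adjusted p lay between 0.0011 and 1. TRIB3 was at -0.11 (adjusted p = 0.0057, between 0.0057 and 1), CEBPG at -0.11 (adjusted p = 0.016, between 0.016 and 0.95) and CHAC1 at -0.34 (adjusted p = 1.5e-04, between 1.5e-04 and 0.3). DDIT3 did not pass, at 0.09 ± 0.05. A fit of the 2 deprived groups alone, with all their libraries, called 1 gene, ATF3, with PPP1R15A and STC2 at an adjusted p of 0.12 each.

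**Figure D4:**
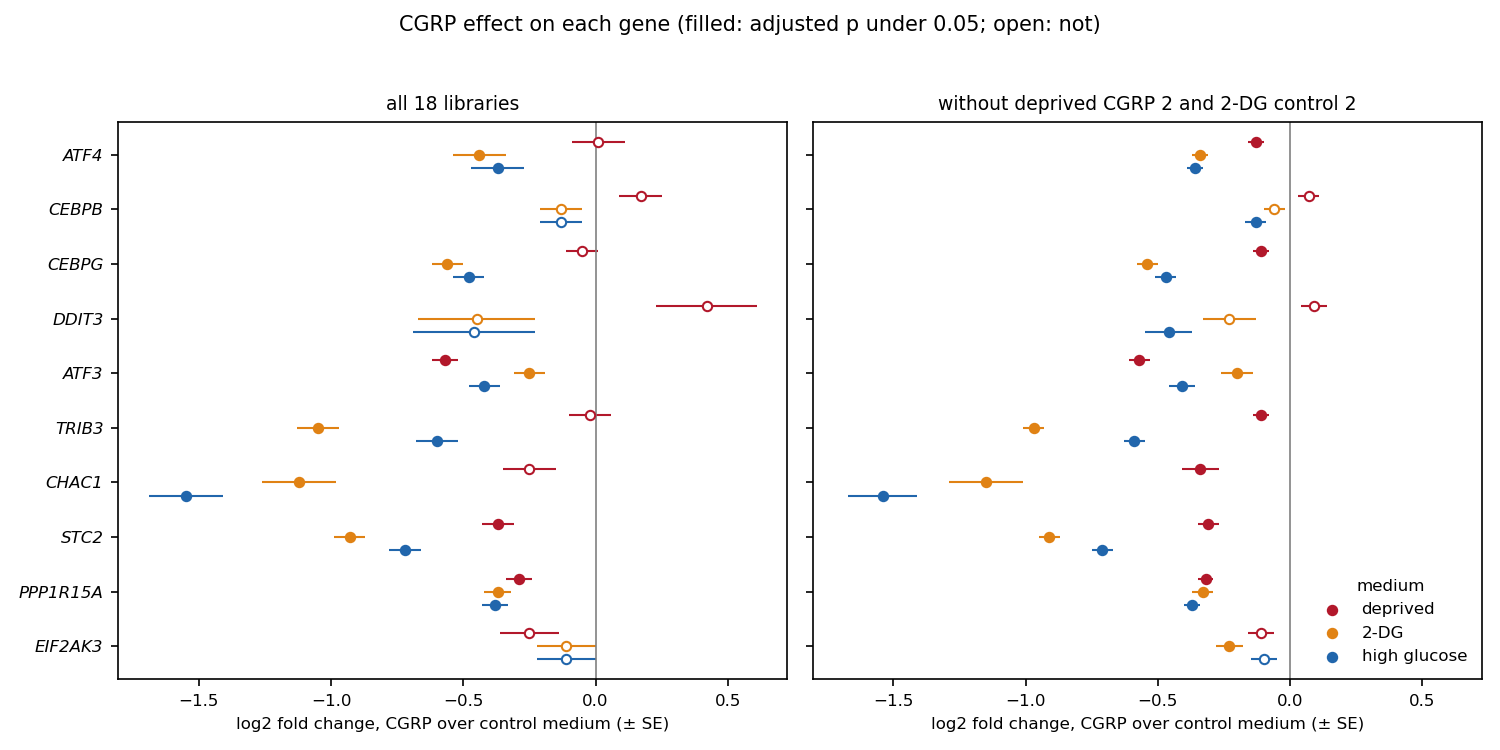
Log2 fold change ± SE under CGRP over control for each gene in the 3 media (red deprived, orange 2-DG, blue high glucose), over all 18 libraries (left) and without the 2 that stood apart (right); filled points have an adjusted p under 0.05. ATF4, CEBPG and TRIB3 lie near 0 in deprived medium and below -0.3 in the other media.

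Whether the CGRP effect differed between media was tested directly. Between deprived medium and high glucose, 3 genes had a less negative effect in deprived medium, 0 a more negative one, and 7 did not pass, where 1.55% of all tested genes changed and 0.903% in the positive direction. CHAC1 differed by 1.30 ± 0.18 (adjusted p = 9.4e-04), from an effect of -0.25 in deprived medium and -1.55 in high glucose. TRIB3 differed by 0.58 ± 0.11 (adjusted p = 0.012), from -0.02 in deprived medium and -0.60 in high glucose, and CEBPG by 0.42 ± 0.08 (adjusted p = 0.011), from -0.05 in deprived medium and -0.48 in high glucose. ATF3 and PPP1R15A, which fell in both media, differed by -0.15 and 0.09 (adjusted p = 0.45 and 0.71). STC2 was at 0.34 ± 0.09 (adjusted p = 0.068), ATF4 at 0.38 ± 0.14 (adjusted p = 0.22), DDIT3 at 0.89 ± 0.30 (adjusted p = 0.19), CEBPB at 0.30 ± 0.11 (adjusted p = 0.24) and EIF2AK3 at -0.15 ± 0.16 (adjusted p = 0.81).

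On leaving out the 2 libraries that stood apart 7 genes passed, all positive, beside 13.5% of all tested genes. The differences of CHAC1, TRIB3 and CEBPG were then 1.21, 0.48 and 0.36, and ATF4, DDIT3, CEBPB and STC2 joined them at 0.23, 0.55, 0.20 and 0.40. Between 2-DG medium and high glucose none of the 10 genes passed by edgeR's quasi-likelihood test, where 0.391% of all tested genes did. TRIB3 was the nearest to it, at -0.45 ± 0.11 (adjusted p = 0.13), and DESeq2 called 1 gene. At an unadjusted p under 0.05 there were 2, TRIB3 and STC2 (-0.22 ± 0.09). CHAC1 was at 0.43 ± 0.20, ATF3 at 0.16 ± 0.08, CEBPG at -0.09 ± 0.08 and ATF4 at -0.07 ± 0.14, and DDIT3, PPP1R15A, CEBPB and EIF2AK3 lay within 0.01 of 0. TRIB3 and STC2 passed without the 2 libraries, at -0.38 and -0.20, beside 5.91% of all tested genes. This difference and the one above share the high glucose libraries.

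Markers of other cell types were counted beside the CGRP effect, since some moved with it. Their CPM is relative to the total count of the library without TMM scaling, unlike that of the 10 genes. Of 4 endothelial markers 2 averaged over 1 CPM, mainly CDH5, and their sum was 44.1 to 46.2 CPM in high glucose CGRP and 25.4 to 26.1 CPM in high glucose control. In 2-DG medium it was 40.9 to 45.1 CPM with CGRP and 20.8 to 25.4 CPM in control, and in deprived medium 2.79 to 3.79 CPM with CGRP and 1.74 to 2.45 CPM in control. Of 6 Schwann cell and neuron markers 3 averaged over 1 CPM, mainly NEFM. Their sum was 19.4 to 22.4 CPM in high glucose CGRP and 11.2 to 12.1 CPM in high glucose control, 21.3 to 24.8 CPM in 2-DG CGRP and 11.5 to 13.5 CPM in 2-DG control, and 4.68 to 5.68 CPM in deprived CGRP and 2.93 to 3.65 CPM in deprived control. The fibroblast sum was 27.3 to 30.1 CPM in high glucose CGRP and 26.3 to 28.1 CPM in high glucose control, 25.1 to 26.1 CPM in 2-DG CGRP and 17.6 to 19.9 CPM in 2-DG control, and at most 16.0 CPM in deprived CGRP and 10.9 CPM in deprived control. The leukocyte sum was 7.25 to 8.74 CPM in high glucose CGRP and 6.49 to 6.78 CPM in high glucose control, 7.10 to 8.10 CPM in 2-DG CGRP and 5.79 to 6.77 CPM in 2-DG control, and 6.95 to 10.5 CPM in deprived CGRP and from 6.49 CPM in deprived control, where it overlapped with deprived CGRP. The squamous sum was lower without glucose, at 3383 to 3406 CPM in deprived CGRP and 3465 to 3576 CPM in deprived control, where it was 5209 to 5219 CPM in high glucose CGRP and 5006 to 5159 CPM in high glucose control. Whether these transcripts come from the line itself and their part in the results was not tested.

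The rest of the pathway was described with 5 lists of genes. Of 24 further targets of ATF4 and CHOP that were tested (FGF21 was too low), 21 rose and 3 fell with deprivation in control medium, with a median of 1.04, where 60.6% of all tested genes changed and 31.0% rose. INHBE, an inhibin subunit, averaged 26.5 ± 2.01 CPM in deprived control and 1.35 ± 0.0633 CPM in high glucose control (SD, n = 3 each). SESN2, a stress sensor that restrains mTORC1, stood at 116 ± 2.10 CPM in deprived control and 17.0 ± 0.268 CPM in high glucose control, and GDF15, a stress cytokine, at 242 ± 6.71 CPM in deprived control and 44.5 ± 2.85 CPM in high glucose control. Under 2-DG in control medium 6 of the 24 rose and 3 fell (median 0.10), where 7.99% of all tested genes rose and 5.85% fell. Without the 2 libraries that stood apart 12 rose and 4 fell, beside 32.5% of all tested genes that changed.

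CGRP lowered 11 of these 24 targets in high glucose, 13 in 2-DG medium and 6 in deprived medium, and raised 0 in each, with medians of -0.27, -0.51 and -0.13. Over all tested genes 2.29% fell in high glucose, 6.89% in 2-DG medium and 6.58% in deprived medium. Without the 2 libraries that stood apart 17 fell in high glucose, 16 in 2-DG medium and 11 in deprived medium, and 2 rose in each, where 19.1%, 28.4% and 28.7% of all tested genes changed in these media. PSAT1, an enzyme of serine synthesis, averaged 192 ± 3.12 CPM in 2-DG CGRP and 420 ± 17.1 CPM in 2-DG control (-1.13 ± 0.05, adjusted p = 4.3e-09). GDF15 averaged 22.0 ± 0.866 CPM in high glucose CGRP and 44.5 ± 2.85 CPM in high glucose control (-1.01 ± 0.07, adjusted p = 2.1e-07). SESN2 was the clearest in deprived medium, at 94.9 ± 2.35 CPM with CGRP and 116 ± 2.10 CPM in control (-0.29 ± 0.05, adjusted p = 0.0013). The CGRP effect in deprived medium minus that in high glucose was positive for 6 of the 24 and negative for 2. Of all tested genes 1.55% passed in this difference. Without the 2 libraries the numbers were 13 and 4, beside 13.5%. GDF15 differed most clearly (1.17 ± 0.09, adjusted p = 7.3e-06), from 0.15 in deprived medium, which did not pass, and -1.01 in high glucose. ASNS, asparagine synthetase and a classic ATF4 target, was a low transcript in this table, at 4.51 ± 0.564 CPM in deprived control and 1.48 ± 0.341 CPM in high glucose control. It rose with deprivation (1.60 ± 0.23, adjusted p = 1.7e-05). With CGRP it fell in high glucose (-1.18 ± 0.30, adjusted p = 0.032) and deprived medium (-0.76 ± 0.22, adjusted p = 0.031). In 2-DG medium it did not pass (-0.69 ± 0.30, adjusted p = 0.16).

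The other arms of the unfolded protein response, run by IRE1 and ATF6, were read from 12 genes. All 12 rose with deprivation in control medium (median 2.38), where 31.0% of all tested genes rose. With 2-DG 9 rose (median 0.97, beside 0.10 for the ATF4 and CHOP targets), where 7.99% of all tested genes rose. Without the 2 libraries that stood apart 11 rose, beside 32.5% of all tested genes that changed. HSPA5, the main ER chaperone, averaged 20596 ± 227 CPM in deprived control, 2267 ± 148 CPM in 2-DG control and 923 ± 4.11 CPM in high glucose control. HERPUD1, a part of ER-associated degradation, averaged 280 ± 2.67 CPM in deprived control, 58.5 ± 3.88 CPM in 2-DG control and 28.3 ± 0.663 CPM in high glucose control. CGRP lowered 9 of the 12 in 2-DG medium (median -0.56) and 0 in high glucose (median -0.03), where 6.89% and 2.29% of all tested genes fell. In deprived medium 1 rose, PDIA4, and 1 fell, ERN1, where 13.0% of all tested genes changed. The effect in 2-DG medium was more negative than in high glucose for 4 genes, among them HSPA5 (-0.82 ± 0.10, adjusted p = 0.002), where 0.391% of all tested genes changed, and for 10 without the 2 libraries that stood apart, beside 5.91%. Under CGRP, leaving these 2 libraries out, all 12 fell in 2-DG medium, 3 in high glucose and 8 in deprived medium. In each of the last 2 media 1 rose. Of all tested genes 28.4% then changed in 2-DG medium, 19.1% in high glucose and 28.7% in deprived medium.

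Upstream of ATF4, 2 lists were counted. Of 8 further eIF2 kinase genes and regulators 3 rose with deprivation in control medium, where 31.0% of all tested genes rose. DNAJC3, an inhibitor of PERK, led them (2.11 ± 0.08, adjusted p = 1e-12) and also rose with 2-DG (0.80 ± 0.07, adjusted p = 4.3e-06). Without the 2 libraries that stood apart 4 rose and 3 fell with deprivation, beside 72.4% of all tested genes that changed. EIF2AK4 did not pass in deprivation (-0.08 ± 0.09, adjusted p = 0.43) and fell with CGRP in deprived medium (-0.33 ± 0.09, adjusted p = 0.025). It averaged 68.1 ± 8.76 CPM in deprived CGRP, the group of deprived CGRP 2, and 85.4 ± 0.997 CPM in deprived control. In this comparison 2 of the 8 fell, where 6.58% of all tested genes fell. IMPACT, an inhibitor of GCN2 activation, was the 1 gene of the 8 that fell with CGRP in high glucose (-0.31 ± 0.05, adjusted p = 0.002). Of all tested genes 2.29% fell there. Without the 2 libraries 1 of the 8 rose and 3 fell, beside 19.1% of all tested genes that changed. IMPACT also fell with CGRP in deprived medium (-0.25 ± 0.05, adjusted p = 0.004) and 2-DG medium (-0.19 ± 0.05, adjusted p = 0.021). In 2-DG medium 2 of the 8 fell, where 6.89% of all tested genes fell. Without the 2 libraries 2 fell in deprived and 6 in 2-DG medium, beside 28.7% and 28.4% of all tested genes that changed. Of 12 genes of eIF2, its exchange factor eIF2B and the phosphatase, 5 rose and 1 fell with deprivation in control medium. Of all tested genes 60.6% changed there. Without the 2 libraries 5 of the 12 rose and 6 fell, beside the 72.4% of all tested genes that then changed. CGRP changed 0 of the 12 in high glucose, 1 in deprived medium and 2 in 2-DG medium, where 4.33%, 13.0% and 12.2% of all tested genes changed. Without the 2 libraries 2 rose and 5 fell in high glucose, 1 rose and 6 fell in deprived medium, and 3 rose and 5 fell in 2-DG medium. Of all tested genes 19.1%, 28.7% and 28.4% then changed in these media. PPP1R15B, the constitutive counterpart of PPP1R15A, rose with deprivation by 0.61 ± 0.10 (adjusted p = 7e-05), beside 2.67 for PPP1R15A. Of 9 bZIP partners tested (CEBPE was too low), 5 rose and 4 fell with deprivation in control medium, where 60.6% of all tested genes changed. In high glucose CGRP lowered 1 of the 9. It raised 1 and lowered 3 in deprived medium, and raised 1 and lowered 1 in 2-DG medium. Of all tested genes 4.33%, 13.0% and 12.2% changed in these media. JUN fell with CGRP in high glucose (-0.47 ± 0.05), 2-DG (-0.68 ± 0.05) and deprived medium (-0.30 ± 0.05). CEBPA rose in deprived medium (0.50 ± 0.11) and CEBPD in 2-DG medium (0.42 ± 0.12). Without the 2 libraries 1 fell in high glucose. In deprived medium 1 then rose and 5 fell, and in 2-DG medium 1 rose and 2 fell.

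The order of the group means was the same for some of the genes and differed in the others. CEBPG, TRIB3, PPP1R15A and STC2 had the order, low to high, of high glucose CGRP, 2-DG CGRP, high glucose control, 2-DG control, deprived CGRP and deprived control. Neighbours overlapped in TRIB3 between the 2 deprived groups, in PPP1R15A between the CGRP groups of high glucose and 2-DG, in CEBPG at both of these places, and in STC2 nowhere. CHAC1 had 2-DG control below high glucose control, with overlap, and its CGRP groups of high glucose and 2-DG overlapped too. ATF4 and DDIT3 had deprived CGRP on top, in ATF4 with overlap. In ATF4 the high glucose and 2-DG groups also overlapped, both with CGRP and in control. In DDIT3 2-DG CGRP overlapped with high glucose control. CEBPB had 2-DG CGRP lowest, then 2-DG control, with overlap, and deprived CGRP on top. Its 2-DG control also overlapped with high glucose CGRP, and its high glucose control with deprived control. The group means of CEBPB thus parted the media before the CGRP arms, though its libraries did not. ATF3 had 2-DG CGRP lowest and 2-DG control below high glucose control, and its 2-DG control overlapped with high glucose CGRP. The group means of EIF2AK3 also parted the media before the CGRP arms, with both high glucose groups lowest. Its libraries did not part fully, since 2-DG control 2, at 29.1 CPM, lay within high glucose control, at 26.9 to 29.5 CPM. Between 2-DG and high glucose the gene did not pass by edgeR (adjusted p = 0.063 in control medium and 0.16 under CGRP).

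Genes with the most similar course were sought for the 3 genes of widest span, as the smallest root mean square (RMS) difference between centred log2 group means over the 6 groups. For DDIT3, whose group means spanned 5.47 log2 units, these were LURAP1L (RMS 0.160), L3MBTL2-AS1 (0.292) and SCN9A (0.301). For TRIB3, with a span of 4.32, they were LINC00973 (0.126), THBD (0.169) and ALOX5AP (0.209). For CHAC1, with a span of 4.11, they were GDF15 (0.228), ADM2 (0.237) and MAP1B (0.270), of which the first 2 are in the list of further targets.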

How the data were processed

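Total RNA of 18 Cal27 cultures was sequenced on standard Illumina libraries, per the labels' protocols. The authors deposited 1 raw count per gene and library, per the file headers. The submitters' processing notes name HISAT2 2.0.4 and 2 builds, hg19 and GRCh38, and do not say which one the counts rest on. The counting program, annotation and strand setting were not given in the sources used here.

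From these counts, genes were filtered with filterByExpr (at least 10 counts, at least 15 in total), scaled by TMM and tested with edgeR 4.0.16 (R 4.3.3, limma 3.58.1), using the robust quasi-likelihood F test. All 18 libraries entered 1 fit with a term for each of the 6 groups (12 residual degrees of freedom, common biological coefficient of variation 9.44%). In each comparison the Benjamini-Hochberg adjustment ran over every gene tested, at a threshold of 0.05. "Rose" and "fell" mean past it. The test was checked on counts simulated from the high glucose libraries, in a fit of those 2 groups alone. The fit of all 18 libraries was not checked in this way. For principal components, 2 CPM were added before taking log2.

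All 10 genes are named in every comparison. Of each pathway list up to 4 genes per comparison with the smallest adjusted p are named, with ASNS, HSPA5 and EIF2AK4 always allowed. Genes most alike were sought among those with a mean log2 CPM of at least 1. Genes and lists were chosen with earlier results of these data known. Promoters are RefSeq sequences of GRCh38.p14, which need not be the build of the counts. No ATF4 pseudogene averaged over 7.06 counts, where ATF4 averaged 11004.

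Alternatives were DESeq2 size factors (RLE), total-count scaling, the DESeq2 1.42.0 Wald test, leaving off the low-count filter or setting it higher (over 1 CPM in 3 libraries, mean over 2 CPM), fitting just the groups in a comparison, a replicate block, each library left out, and both libraries that stood apart left out. For the pathway lists this last one was chosen after seeing the data. Replicate numbers were not taken to pair the libraries of the groups compared.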

Additional observations from a re-analysis of the deposited data

Results flagged for a closer look

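For 3 of the 10 genes the CGRP effect differed between deprived medium and high glucose by the interaction test of edgeR. CHAC1 differed by 1.30 on the log2 scale, TRIB3 by 0.58 and CEBPG by 0.42, deprived minus high glucose. Every library of the high glucose CGRP group lay below every high glucose control library in these genes. In deprived medium the groups overlapped in TRIB3 and CEBPG, while in CHAC1 all 3 CGRP libraries, at 24.2, 28.9 and 23.9 CPM, lay below the control libraries, at 29.8, 30.4 and 31.4 CPM. The interaction kept its sign under all 26 other settings in each gene, with ranges of 1.19 to 1.42 for CHAC1, 0.48 to 0.64 for TRIB3 and 0.36 to 0.46 for CEBPG. Without a filter on low counts CEBPG was at an adjusted p of 0.055, beside a range over all alternatives from 1.8e-06 to 0.055.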

How the results depend on the processing

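Of 100 results (10 genes in 10 comparisons) under 26 other settings, 71 stayed on the same side of the threshold in every setting, and 47 of the 53 that passed kept their call in each. Of those that did not pass, 22 passed in the same direction in at least 1 setting, and 9 changed sign in at least 1. ATF4 with CGRP in deprived medium reversed, to -0.13 without the 2 libraries that stood apart. Calls were lost for ATF4 with CGRP in high glucose, PPP1R15A and STC2 with CGRP in deprived medium, ATF3 with CGRP in 2-DG medium (adjusted p = 0.061 without a filter and 0.1 in the fit of the 2 groups, from 0.0029 to 0.1 over all), CEBPB between 2-DG and deprived control, and CEBPG in the first interaction. The causes were not tested.

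The number of the 10 genes called moved by more than 1.5 times as follows. Without the 2 libraries that stood apart it was 7 with CGRP in deprived medium, 6 with 2-DG in control medium, 6 with 2-DG under CGRP, 7 for the CGRP effect in deprived minus high glucose and 2 in 2-DG minus high glucose. A fit of only the groups compared called 1 with CGRP in deprived medium and 6 with 2-DG under CGRP. 2-DG under CGRP gave 2 with total counts and 2 with the stricter filter. DESeq2 called 1 in 2-DG minus high glucose. Leaving out 1 library in turn gave 6 to 7 with CGRP in high glucose, 3 to 4 in deprived and 7 to 8 in 2-DG medium, 9 to 9 with deprivation and 3 to 5 with 2-DG in control medium, 10 to 10 and 1 to 3 under CGRP, 9 to 10 between 2-DG and deprived control, and 3 to 4 and 0 to 1 in the interactions. With the replicate number as a block the calls were 7, 3, 7, 9, 3, 10, 1, 10, 3 and 0 in the order of the comparisons CGRP in high glucose, deprived and 2-DG medium, deprivation and 2-DG in control medium, both under CGRP, 2-DG against deprivation, and both interactions, each as without the block. Correlations of same-numbered libraries ran from -0.493 to 0.866 over 45 pairs, 10 of them over 0.1. In no 2 groups that were compared were all 3 over 0.1, so the numbers were not taken to pair the libraries. Deprived CGRP and 2-DG control, which were not compared, correlated at 0.732, 0.866 and 0.672, and the 2 libraries that stood apart are number 2 of these groups.

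Among all tested genes the count with CGRP in high glucose was 787, and 353 to 1565 on leaving out 1 library (lowest without high glucose control 2, highest without deprived CGRP 2), 474 without a filter, 3653 in the fit of the 2 groups and 3520 without the 2 libraries. With CGRP in deprived medium these were 2354, 1282 to 2726, 1463, 141 and 5307, the lowest of the range without deprived control 1. With CGRP in 2-DG medium 2216 changed, 1447 to 3853 on leaving out 1 library, 1194 in the fit of the 2 groups and 5249 without the 2 libraries. With 2-DG in control medium these were 2513, 1593 to 4274, 1551 and 5997. With 2-DG under CGRP 434 changed, 157 to 1238 on leaving out 1 library, 701 by DESeq2, 246 without a filter, 2363 and 3598. The interactions gave 282 and 71, 162 to 582 and 13 to 324 on leaving out 1 library, 523 and 220 by DESeq2, 163 and 30 without a filter, 164 and 142 in the fit of the 4 groups, and 2500 and 1092 without the 2 libraries. Every upper end here was without deprived CGRP 2.

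Total counts in place of TMM moved the share of changed genes that rose to 66.2% against 49.2% with CGRP in deprived medium, 57.0% against 43.5% in 2-DG medium, 38.0% against 51.2% with deprivation and 38.1% against 57.7% with 2-DG in control medium, 41.5% against 52.8% and 51.1% against 63.6% under CGRP, and 70.5% against 58.2% and 44.4% against 31.0% in the interactions. With 3 libraries a group, p-values set a difference against the spread between these libraries. That spread was estimated over all 18 libraries, so libraries outside a comparison also bear on its p-value. DDIT3 with CGRP in high glucose was at -0.46 with an adjusted p of 0.38 in this fit and of 1.7e-04 in the edgeR fit of its 2 groups. Falls in low transcripts such as CHAC1 rest on 50 to 66 counts per library under CGRP in high glucose. Transcript levels of ATF4 do not report its translation.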
